A study of Rattus norvegicus with 12 samples.

Results

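A set of 8 rat genes that carry, import, activate, sense or answer thyroid hormone was followed in liver across changes of sex, pituitary and growth hormone (GH). They are Serpina7 and Ttr (plasma carriers), Slc16a10 (a membrane transporter), Dio1 (a deiodinase), Thra and Thrb (the nuclear receptors), and Klf9 and Gpd2 (target genes). They were chosen by name: every non-control probe whose gene symbol in the array files is exactly one of these 8 was used, which gave 11 of 41012 probes. Dio1, Klf9 and Thrb had 2 probes each and the other 5 genes had 1. The brightest probe of a gene over all arrays is described, and the other probe where it adds something.

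The study compared 6 kinds of liver RNA from Fischer 344 rats 12 weeks old, always 2 kinds per array, on 12 two-colour Agilent arrays. The RNAs came from untreated males, untreated females, hypophysectomised (Hypox) males and Hypox females, each as pools of 3 to 4 livers, and from GH-treated Hypox males. The 1 GH pool joined 4 livers collected at 30, 60 or 90 min after the only dose. The 2 GH pool joined 5 livers of rats dosed again after 3 or 4 h. Each comparison had 2 arrays with exchanged dyes, holding different pools except that a single pool of each GH treatment served both arrays of its comparison. Hypophysectomy removes thyrotropin, prolactin, corticotropin and gonadotropins together with GH. A sham operation, replacement of thyroid or adrenal hormone, and blood hormone levels are not given in the sources used here, and no GH-treated female was measured. The GH-treated rats had also lost their pituitary, so their values are relative to Hypox males.

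The thyroid releases mostly the prohormone thyroxine, which travels in blood bound to carrier proteins made in liver, enters hepatocytes through membrane transporters and is turned into the active hormone triiodothyronine by the selenoenzyme encoded by Dio1. Triiodothyronine binds the receptors encoded by Thrb, the main form in hepatocytes, and Thra, and these regulate target genes from hormone response elements in DNA. Dio1 and Gpd2 are themselves classical genes induced by thyroid hormone in rat liver, and pituitary thyrotropin drives the thyroid.

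The promoters of Dio1 and Slc16a10 are shown because these were the only members called between untreated males and females. Both are from RefSeq on the rat assembly GRCr8, cover the 250 bases before the annotated start, and are written 5′ to 3′ along the gene, which lies on the minus strand in each case. Dio1 is at chr5:127319785-127320034 and Slc16a10 at chr20:45122359-45122608. Capitals mark AGGTCA, the core motif that thyroid hormone receptors read in DNA.
Dio1: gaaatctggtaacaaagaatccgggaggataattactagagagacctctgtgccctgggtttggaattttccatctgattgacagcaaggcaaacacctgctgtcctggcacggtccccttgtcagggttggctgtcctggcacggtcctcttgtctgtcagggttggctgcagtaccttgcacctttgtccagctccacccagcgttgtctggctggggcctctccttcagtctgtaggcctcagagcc
Slc16a10: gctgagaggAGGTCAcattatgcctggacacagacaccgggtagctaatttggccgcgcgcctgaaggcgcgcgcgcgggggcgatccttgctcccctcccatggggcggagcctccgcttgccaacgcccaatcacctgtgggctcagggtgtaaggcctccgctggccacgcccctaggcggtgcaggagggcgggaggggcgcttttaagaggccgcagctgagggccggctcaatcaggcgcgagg
All 8 genes matched the RefSeq table, with 9 windows. The core motif, searched on both strands, was in 1 of these 9 windows, that of Slc16a10 at 241 bases before the start, and in 4707 of all 33469 promoter windows of the same length (14.1%). The direct repeat DR4, this motif repeated in the same direction after a gap of 4 bases, was in 0 of the 9 windows and in 1 of the 33469 (0.00299%). A match of letters is a description, and the windows leave out response elements farther from the start.

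Values are log2 ratios, of the RNA named first over the other, with the SE of a limma model fitted to all 12 arrays, and each comparison had n = 2 arrays. A probe was called where its Benjamini-Hochberg adjusted p, over all probes tested in that comparison, was under 0.05. Array values are given after removal of the fitted dye effect, replicate 1 first. P-values measure the spread between arrays within comparisons, pooled over all 6 comparisons, and so between pools of livers already averaged. A probe measured on all 12 arrays therefore has the same SE in each comparison, however far apart its 2 arrays are. P-values of the GH comparisons hold no spread between GH pools. The labels do not match pools to arrays, and comparisons with a common RNA may share pools. Replicate deviations turned to that RNA had correlations over 0.1 in 8 of 9 pairs of such comparisons. Pairs with no common RNA also had correlations, from -0.54 to 0.42, so these cannot tell whether pools were shared. Where pools are shared, the 12 arrays are not independent, and SEs and p-values may be too small. In bulk liver, fewer cells of a type and less RNA per cell cannot be told apart.

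The RNAs behaved as labelled for Xist (-6.37 in untreated and -6.11 in Hypox males against females) and for the GH target Igf1 (-3.48 and -2.72 after Hypox in males and females, 2.31 and 2.71 after 1 GH and 2 GH). Of all probes 58.4% to 71.1% were well above background in a channel, and with 2 arrays a comparison the precision is limited. One set of arrays stood apart: the summed signal of 7 pancreas markers in Hypox male RNA was 1326 to 1471 on the 4 replicate 1 arrays and 19774 to 20963 on the 4 replicate 2 arrays. It was 16481 to 17373 in untreated females and 1113 to 2898 in the other RNAs. Between untreated males and females 1 of 6 tested pancreas markers was called, lower in males, with a median of -0.02 (lowest -3.93). The high sum in untreated females was therefore not shared by all the markers. Hypox males against Hypox females had a median of 0.98 over 6 tested, with 0 called. Because of the split in Hypox male RNA, results are also given without its 4 replicate 2 arrays where a call of a member differs. These come from a fit with 1 residual degree of freedom. That fit was added after the data had been seen. Summed signals of 3 erythroid markers were 8459 to 14978 in untreated males, 8311 to 11892 in untreated females, 936 to 2049 in Hypox males, 3161 to 4474 in Hypox females, 4196 to 4296 after 1 GH and 2256 to 2336 after 2 GH. Endothelial markers were higher for 6 of 8 tested after Hypox in males and 6 of 7 in females, and macrophage markers for 6 of 7 after 1 GH and for 0 of 7 after 2 GH (1 at an unadjusted p under 0.05). Of the hepatocyte markers 1 rose and 1 fell after Hypox in males (median -0.07) and 2 rose in females (median 0.07) among 9 tested. The part of these other cell types in the results below was not tested.

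Hypophysectomy changed 7 of the 8 genes, in the same direction in both sexes. In Hypox males 4 member probes rose and 5 fell of 10 tested, where 37.5% of all probes were called. In Hypox females the counts were again 4 up and 5 down of 10, with 36.3% of all probes called. Serpina7, Slc16a10, Thrb and Thra rose, and Dio1, Gpd2 and Klf9 fell, while Ttr was not called. Between untreated males and females 3 of 10 member probes were called (2 up, both of Dio1, and 1 down, Slc16a10), against 15.5% of all probes. After 1 GH the counts were 5 up and 1 down of 10, against 14.3% of all probes, and after 2 GH 2 up and 3 down of 11, against 30.8%. Hypox males against Hypox females gave 0 of 10 calls in limma, with 1 member probe at an unadjusted p under 0.05, where 0.949% of all probes were called (247, and 3561 at an unadjusted p under 0.05). No alternative processing gave a member call there. The counts of gene lists and markers in this report are to be read beside these shares of all probes called.

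The calls depended on the normalization. With arrays centred on their median in place of loess, the calls of brightest probes that were kept were those of Dio1 (-2.22, adjusted p = 0.0240), Serpina7 (3.16, adjusted p = 0.0182) and Slc16a10 (1.92, adjusted p = 0.0480) in Hypox males, and of Serpina7 (2.57, adjusted p = 0.0367) and Gpd2 (-2.01, adjusted p = 0.0311) in Hypox females. The second Dio1 probe was also called in Hypox males (-1.69, adjusted p = 0.0406). The other calls of brightest probes ended, with no change of direction, and few probes of the whole array were called either, 345 in Hypox males and 0 after 1 GH.

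**Figure D1:**
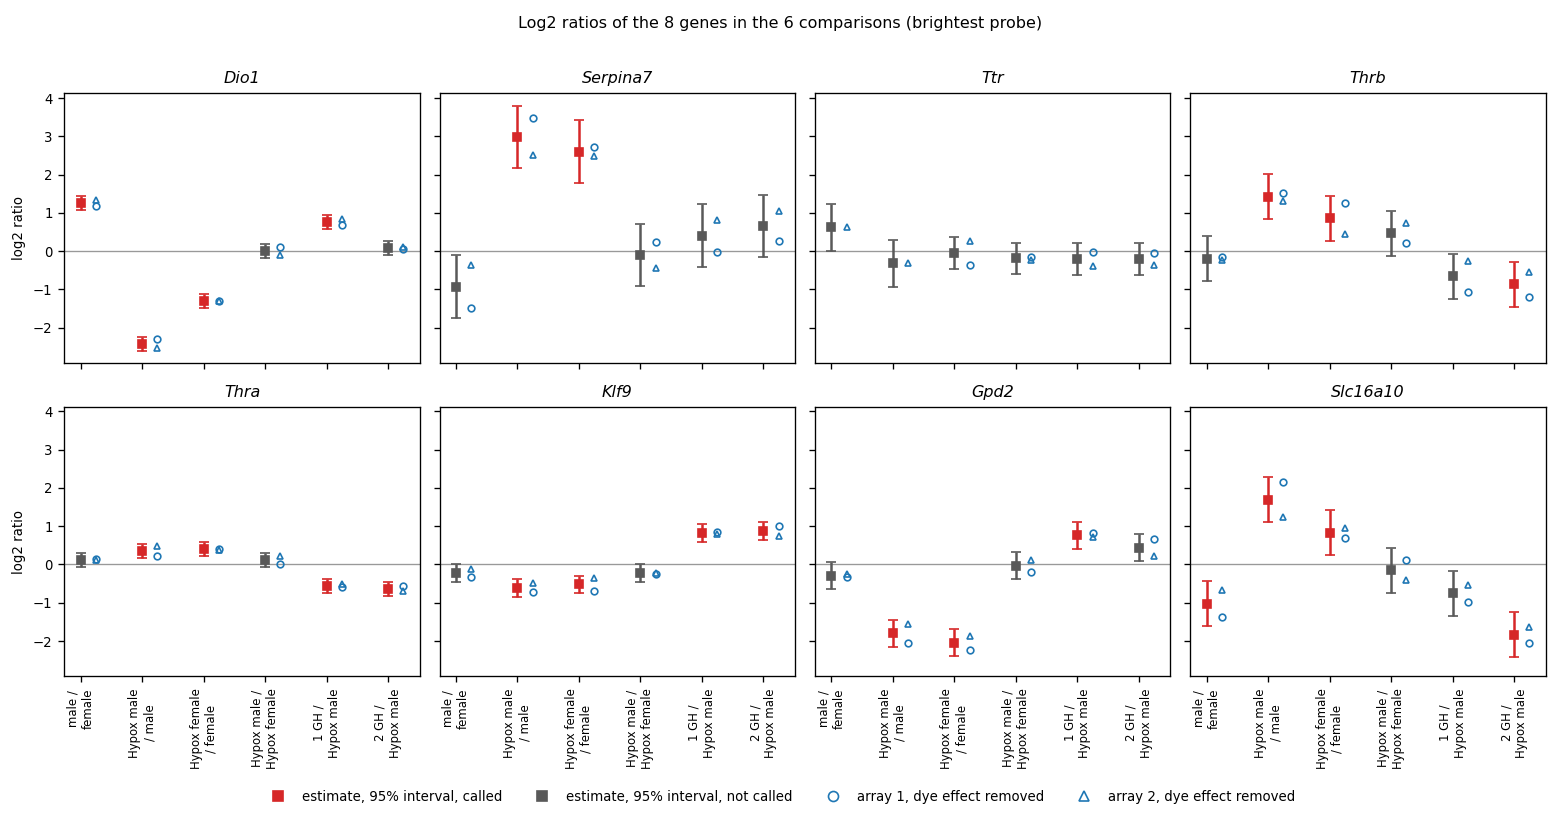
Log2 ratio of the brightest probe of each of the 8 genes in the 6 comparisons, with squares and bars for the limma estimate and its 95% interval (red where called) and open symbols for the 2 arrays. Serpina7, Slc16a10 and Thrb lie above 0 and Dio1 and Gpd2 below 0 on both arrays of both Hypox comparisons.

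Serpina7 encodes thyroxine-binding globulin, the carrier with the tightest hold on thyroxine, and it had the largest rise of the 8 genes after Hypox. In Hypox against untreated males its log2 ratio was 3.47 and 2.51 on the 2 arrays. In Hypox against untreated females it was 2.72 and 2.48. All 4 arrays showed a rise of several fold, and every Hypox channel was above every untreated channel. The estimates were 2.99 ± 0.35 in males (7.93-fold, 95% interval 2.17 to 3.80, limma adjusted p = 0.000484) and 2.60 ± 0.35 in females (6.06-fold, interval 1.78 to 3.41, adjusted p = 0.000955). The difference between the sexes in this rise was 0.61 ± 0.35 (adjusted p = 0.32) and was not called.

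Untreated males had less Serpina7 signal than untreated females on both arrays (-1.48 and -0.37), but the estimate of -0.92 ± 0.35 was not called (adjusted p = 0.129). Neither GH treatment was called: the ratio to Hypox males was 0.40 ± 0.35 after 1 GH (adjusted p = 0.506) and 0.65 ± 0.35 after 2 GH (adjusted p = 0.224). In Hypox males the level on the log2 signal scale was 15.59 to 15.84 on the 4 replicate 1 arrays and 14.49 to 14.86 on the 4 replicate 2 arrays, so the 2 sets did not overlap. Without the replicate 2 arrays, those with the high pancreas signal, the ratio was 1.02 for the difference between the sexes (adjusted p = 0.0194) and -0.92 for untreated males against females (adjusted p = 0.00901), both called. In that fit the rises in Hypox males (3.13) and females (2.60) were called too.

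Ttr, transthyretin, the carrier that also binds retinol-binding protein, was not called in any of the 6 comparisons. Its estimate farthest from 0 was 0.62 ± 0.25 in untreated males against females (adjusted p = 0.172), which rested on 1 array because the spot of the other was marked an outlier. The same held for Hypox against untreated males (-0.31 ± 0.25, adjusted p = 0.377). Hypox against untreated females gave -0.36 and 0.26 on the 2 arrays and an estimate of -0.05 ± 0.17. In the 4 comparisons measured on both arrays, the 2 arrays were on either side of 0 before the dye effect was removed. The single array read -0.11 before that removal in untreated males against females and 0.42 in Hypox against untreated males. The signs of both of these estimates therefore came from the dye term. Without the 4 replicate 2 arrays of Hypox male RNA, Ttr was called in untreated males against females (0.93, adjusted p = 0.0113). With outlier spots kept, Ttr was called in untreated males against females (0.71, adjusted p = 0.0431), in Hypox males (-0.71, adjusted p = 0.0213) and in the difference between the sexes (-0.78, adjusted p = 0.0339). Mean levels of the 6 RNAs lay between 17.34 and 17.50 on the log2 signal scale and all overlapped.

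In the list of 5 plasma carriers, Serpina7 rose and Apoa1, the main protein of high-density lipoprotein, fell after Hypox (-2.74 ± 0.40 in males and -1.38 ± 0.40 in females), with medians of 0.12 and -0.05. The lipoprotein protein Apob rose after 2 GH (0.35 ± 0.08). In limma 0 of the 5 were called in the other 3 comparisons, with 2 at an unadjusted p under 0.05 in untreated males against females and 0 in the others. Medians of all probes tested lay between -0.01 and 0.01 in every comparison.

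**Figure D2:**
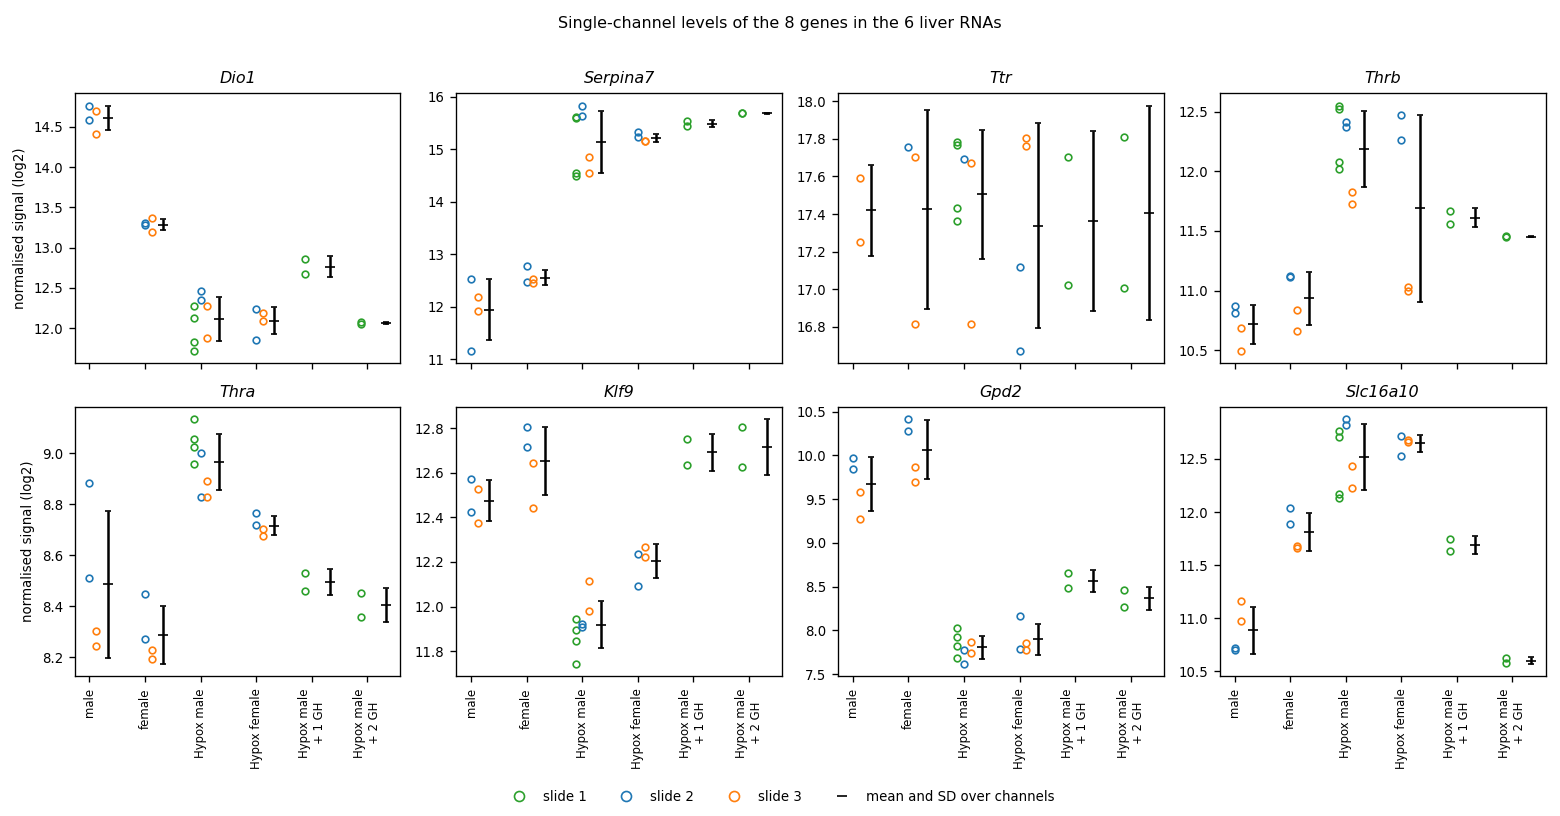
Normalised log2 signal of the 8 genes in each of the 6 RNAs, with a circle for every array channel coloured by slide and a bar for the mean and SD over channels. Serpina7 shows a gap between untreated and all Hypox channels, and Dio1 a level highest in untreated males, then untreated females.

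Slc16a10 encodes MCT10, a transporter of aromatic amino acids that also carries thyroid hormones, and it moved with Hypox and with GH in opposite directions. In untreated males against females it was lower, with -1.38 and -0.67 on the 2 arrays. In Hypox against untreated males the ratios were 2.15 and 1.23. In Hypox against untreated females they were 0.69 and 0.96. Both arrays of each comparison had the same sign. The estimates were -1.03 ± 0.26 for the sexes (2.04-fold lower in males, limma adjusted p = 0.0302), 1.69 ± 0.26 after Hypox in males (3.23-fold higher, adjusted p = 0.00155) and 0.83 ± 0.26 in females (1.77-fold higher, adjusted p = 0.0367).

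Slc16a10 fell after 2 GH, with -2.04 and -1.63 on the 2 arrays and an estimate of -1.84 ± 0.26 (3.57-fold lower than in Hypox males, interval -2.43 to -1.25, adjusted p = 0.000935). After 1 GH it had -0.76 ± 0.26 and was not called (adjusted p = 0.09). The difference between 2 GH and 1 GH was -1.08 ± 0.36 (adjusted p = 0.106) and that between the sexes in the Hypox response 0.87 ± 0.26 (adjusted p = 0.0606), neither called. Mean levels ran from Hypox females (12.65) and Hypox males (12.52), which overlapped, through untreated females (11.82) and 1 GH (11.69), which overlapped, to untreated males (10.89) and 2 GH (10.60). In Hypox males the level was 12.71 to 12.88 on the replicate 1 arrays and 12.13 to 12.44 on the replicate 2 arrays. The sex difference lost its call without untreated male against female replicate 1 (-0.60, adjusted p = 0.471) or replicate 2 (-1.45, adjusted p = 0.0629), and the rise in Hypox females without its replicate 1 (adjusted p = 0.153) or replicate 2 (adjusted p = 0.295). Both calls also ended with no background correction, with the processed signals and with the authors' value table (adjusted p from 0.0537 to 0.0621). Without the 4 replicate 2 arrays of Hypox male RNA the difference between the sexes in the Hypox response was 1.23 and was called (adjusted p = 0.015).

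Among 10 listed membrane transporters of thyroid hormone, 4 rose and 2 fell after Hypox in males (median 0.18), and 5 rose and 2 fell in females (median 0.10). The organic anion transporters Slco1a4 (1.30 ± 0.21 in males, 1.61 ± 0.21 in females) and Slco1a5 (0.65 ± 0.14 and 1.12 ± 0.14) rose with Slc16a10. The liver anion transporter Slco1b2 (-0.62 ± 0.16 and -1.07 ± 0.16) and the bile acid transporter Slc10a1 (-0.45 ± 0.10 and -0.36 ± 0.10) fell. After 2 GH 6 of the 10 fell and 1 rose (median -0.50), led by Slc16a10, Slco1a4 (-1.35 ± 0.21) and Slco1a5 (-0.79 ± 0.14), and the 1 that rose was the amino acid transporter subunit Slc3a2 (0.53 ± 0.06). After 1 GH 0 of the 10 were called in limma, with 2 at an unadjusted p under 0.05. Between untreated males and females 1 was higher in males, Slco1a1 (0.68 ± 0.07), and 3 were lower, among them Slc16a10 and the amino acid transporter Slc7a5 (-0.34 ± 0.06).

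Dio1 was the only one of the 8 genes whose difference between the sexes in the Hypox response was called in the main fit. That fit used all 12 arrays with outlier spots left out. Untreated males had more Dio1 signal than untreated females, with 1.17 and 1.33 on the 2 arrays. In Hypox against untreated males the ratios were -2.30 and -2.54. In Hypox against untreated females they were -1.31 and -1.29. The fall was larger in males on both arrays than on either array of the females. The estimates were 1.25 ± 0.08 for the sexes (2.38-fold higher in males, interval 1.07 to 1.44, limma adjusted p = 2.93e-05), -2.42 ± 0.08 after Hypox in males (5.35-fold lower, adjusted p = 1.01e-06) and -1.30 ± 0.08 in females (2.46-fold lower, adjusted p = 1.96e-05).

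The difference between the sexes in the Hypox response was -1.18 ± 0.08 (limma adjusted p = 5.84e-05), and the second Dio1 probe gave -0.999. It was -1.03 from the replicate 1 arrays and -1.34 from the replicate 2 arrays. Of all probes 13.5% were called in this difference, and of the 10 member probes 2 were, both of Dio1, with 5 at an unadjusted p under 0.05. Hypox males against Hypox females gave 0.01 ± 0.08 (interval -0.18 to 0.19, adjusted p = 0.986), with 0.10 and -0.09 on the 2 arrays. The SE of the difference may be too small, because its 4 comparisons draw on the same 4 RNAs and may share pools.

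Dio1 rose after 1 GH and was not called after 2 GH, and the difference between the treatments was called. The ratios to Hypox males were 0.70 and 0.84 after 1 GH, an estimate of 0.77 ± 0.08 (1.7-fold higher, adjusted p = 0.000866). They were 0.06 and 0.11 after 2 GH, an estimate of 0.08 ± 0.08 (interval -0.10 to 0.27, adjusted p = 0.526). The 2 GH treatments differed by -0.68 ± 0.11 (interval -0.95 to -0.42, adjusted p = 0.00931), and by -0.58 ± 0.09 at the second probe, lower after 2 GH. Of all probes 10.4% were called in this difference, and 2 of 10 member probes, both of Dio1. Leaving out any 1 of the 4 GH arrays ended this call (-0.77 to -0.60, adjusted p from 0.0524 to 0.0875), as did a fit with no dye term (adjusted p = 0.0625), a fit of the 4 GH arrays alone, also with no dye term (adjusted p = 0.157) and leaving out the 4 replicate 2 arrays of Hypox male RNA (-0.64, adjusted p = 0.108). Both treatments were set against Hypox male RNA, and each GH group was 1 pool. The 1 GH livers were collected 30 to 90 min after the only dose, and the 2 GH rats were dosed again after 3 or 4 h. The number of doses, the time since the first dose and the pool therefore cannot be told apart.

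Levels put Dio1 in untreated males first (14.62 on the log2 signal scale, SD 0.15), then untreated females (13.29, SD 0.07), 1 GH (12.76, SD 0.13), Hypox males (12.11, SD 0.27), Hypox females (12.09, SD 0.17) and 2 GH (12.06, SD 0.01). The last 3 overlapped. The 1 GH level was below that of both untreated sexes.

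**Figure D3:**
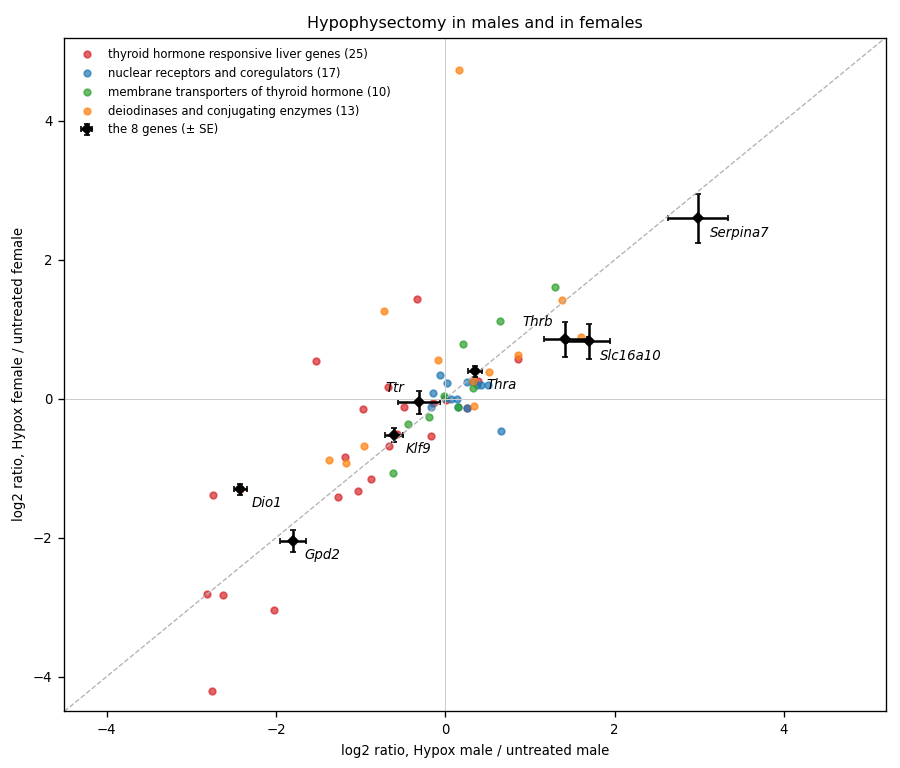
Log2 ratio of Hypox to untreated rats in males (horizontal axis) against that in females (vertical axis), with the 8 genes as black diamonds with SE bars, members of 4 gene lists as coloured dots and a dashed line of equal response. Dio1, at -2.42 in males and -1.30 in females, lies off the line, and Gpd2, Klf9 and Thra lie near it. Slc16a10 (1.69 and 0.83) and Thrb (1.42 and 0.86) also lie off it, with differences between the sexes that were not called.

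Dio3, the deiodinase that inactivates thyroid hormones, was lower in untreated males than females (-0.88 ± 0.08), rose after Hypox in males (1.60 ± 0.08) and in females (0.88 ± 0.08), and fell after 2 GH (-0.82 ± 0.08). Its Hypox response differed between the sexes by 0.84 ± 0.08 (adjusted p = 0.000349), with the larger rise in males. Dio2, which activates thyroxine in other tissues, rose after Hypox in males (0.32 ± 0.06) and females (0.26 ± 0.06) and fell after 1 GH (-0.24 ± 0.06) and 2 GH (-0.60 ± 0.06) at its brighter probe. A second Dio2 probe, also well above background in all 24 channels, was called only after 2 GH (-0.41 ± 0.07) and had 0.22 ± 0.07 and 0.16 ± 0.07 after Hypox in males and females (adjusted p = 0.0526 and 0.138) and -0.06 ± 0.07 after 1 GH. A second Dio3 probe was not tested after Hypox, being well above background in 10 of 24 channels, and was not called after 2 GH (-0.03 ± 0.06).

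**Figure D4:**
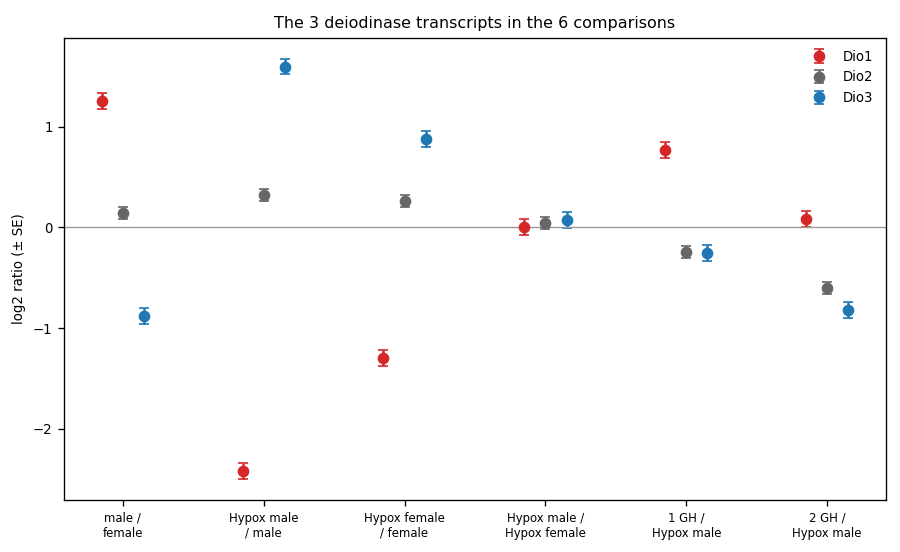
Log2 ratio of Dio1, Dio2 and Dio3 (vertical axis) in the 6 comparisons (horizontal axis), with bars for the SE. After Hypox, Dio1 lies below 0 and Dio3 above 0 in both sexes.

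Deiodinases and enzymes that conjugate or bind thyroid hormone made a list of 13 tested genes. Of these 5 were higher and 2 lower in untreated males than females (median 0.15), led by the estrogen sulfotransferase Sult1e1 (5.29 ± 0.32) and by Crym (2.58 ± 0.12), a cytosolic protein that binds triiodothyronine. After Hypox 5 rose and 5 fell in males (median 0.16), and 8 rose and 4 fell in females (median 0.39). The glucuronosyltransferase Ugt1a1, which acts on thyroxine, rose in males (1.38 ± 0.12) and females (1.42 ± 0.12). Ugt1a6 (-1.38 ± 0.07 and -0.89 ± 0.07) and the sulfotransferase Sult1b1 (-1.17 ± 0.19 and -0.92 ± 0.19) fell in both.

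Sult1e1 and Crym, in contrast, responded by sex. Sult1e1 rose after Hypox in females (4.73 ± 0.32) and had 0.16 ± 0.32 in males, a difference of -3.55 ± 0.32 (adjusted p = 0.000263). Crym fell in males (-0.72 ± 0.12) and rose in females (1.27 ± 0.12), a difference of -1.92 ± 0.12 (adjusted p = 4.04e-05). Both were higher in Hypox males than Hypox females (2.76 ± 0.32 and 0.73 ± 0.12). For Sult1e1 the 4 ratios did not balance. Without error, untreated sexes (5.29) plus Hypox in males (0.16) would equal Hypox in females (4.73) plus Hypox sexes (2.76). The Sult1e1 difference averages 2 direct estimates that lie far apart, so its size is uncertain and its SE may be too small. In this list 2 rose and 4 fell after 1 GH (median -0.24), and 1 rose and 9 fell after 2 GH (median -0.60), led by Sult1e1 (-2.50 ± 0.32 after 1 GH, -1.37 ± 0.32 after 2 GH).

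Dio1 is a selenoprotein, and of 9 genes of selenoprotein synthesis and other liver selenoproteins 1 rose and 3 fell after Hypox in males (median -0.14), and 1 rose and 1 fell in females (median -0.05). The gene that rose was Pstk, the kinase of selenocysteine synthesis (0.82 ± 0.11 and 0.41 ± 0.11). The peroxidase Gpx1 fell in females (-1.02 ± 0.16) and was lower in untreated males than females (-0.71 ± 0.16). After 2 GH 2 rose and 2 fell (median -0.16), led by the thioredoxin reductase Txnrd1 (1.08 ± 0.11) and Pstk (-1.09 ± 0.11). After 1 GH 1 rose, Txnrd1 (0.41 ± 0.11).

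Both receptor genes rose after Hypox and fell after 2 GH. For Thrb the ratios were 1.51 and 1.32 in Hypox against untreated males. They were 1.26 and 0.46 in Hypox against untreated females. All 4 were above 0, and the 2 arrays of the females were far apart. The estimates were 1.42 ± 0.25 in males (2.67-fold, limma adjusted p = 0.00345) and 0.86 ± 0.25 in females (1.81-fold, adjusted p = 0.0312). After 2 GH Thrb had -1.19 and -0.54, an estimate of -0.86 ± 0.25 (1.82-fold lower, adjusted p = 0.0333). After 1 GH it had -0.66 ± 0.25 and was not called (adjusted p = 0.129).

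The call of Thrb in Hypox females ended without replicate 1 (0.38, adjusted p = 0.498), and that after 2 GH without replicate 1 (-0.48, adjusted p = 0.519) or replicate 2 (-1.25, adjusted p = 0.0548). Both also ended with no background correction (adjusted p = 0.0664 and 0.0670). In Hypox females the Thrb level was 12.27 to 12.47 on the replicate 1 arrays and 10.99 to 11.03 on the replicate 2 arrays. In Hypox males it was 12.38 to 12.55 and 11.73 to 12.08. Without the 4 replicate 2 arrays of Hypox male RNA, Thrb also fell after 1 GH (-1.23, adjusted p = 0.0435). The sexes were not called apart for Thrb in untreated rats (-0.20 ± 0.25) or in Hypox rats (0.47 ± 0.25). A second Thrb probe was tested only after 2 GH, where it had -0.04 ± 0.05 and was not called (adjusted p = 0.654).

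Thra had smaller changes. The ratios were 0.21 and 0.49 in Hypox against untreated males, and 0.41 and 0.38 in females. The estimates were 0.35 ± 0.08 (1.28-fold, limma adjusted p = 0.01) and 0.40 ± 0.08 (1.32-fold, adjusted p = 0.00604). Thra fell after 1 GH (-0.55 ± 0.08, adjusted p = 0.00375, lower on both arrays) and after 2 GH (-0.64 ± 0.08, adjusted p = 0.000555, lower on both arrays). Without the replicate 2 array of Hypox males the rise there was 0.18 and not called (adjusted p = 0.163), and without all 4 replicate 2 arrays of that RNA it was 0.21 (adjusted p = 0.228). In females the call ended without replicate 1 (adjusted p = 0.0937) or replicate 2 (adjusted p = 0.0680), and after 1 GH without replicate 1 (adjusted p = 0.0964) or replicate 2 (adjusted p = 0.0763). The sexes were not called apart in untreated rats (0.13 ± 0.08).

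Of 17 tested nuclear receptor and coregulator genes, 8 rose and 0 fell after Hypox in males (median 0.25), and 6 rose and 0 fell in females (median 0.20). Of all probes tested 19.0% rose and 18.5% fell in males, and 17.9% rose and 18.5% fell in females. Besides Thrb, the largest rises in males were of the retinoid X receptor Rxrg (0.66 ± 0.17), a partner of the thyroid hormone receptors, and the coactivator Ncoa1 (0.50 ± 0.09). In females they were of Thra and Tbl1xr1 (0.35 ± 0.07), a part of corepressor complexes. After 2 GH 0 rose and 7 fell of 18 tested (median -0.04), led by Rxrg (-1.06 ± 0.17), and after 1 GH 1 rose and 2 fell of 17 (median -0.07). Between untreated males and females 2 were higher and 2 lower in males (median -0.01), with Rxrg at -0.78 ± 0.17.

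Klf9, a Krüppel-like transcription factor whose gene is a direct target of thyroid hormone and of glucocorticoid, fell after Hypox and rose after GH. The ratios were -0.72 and -0.49 in Hypox against untreated males, and -0.68 and -0.36 in females. All 4 arrays were below 0. The estimates were -0.61 ± 0.10 (1.52-fold lower, limma adjusted p = 0.00248) and -0.52 ± 0.10 (1.44-fold lower, adjusted p = 0.00518). The call in females ended without replicate 1 (-0.33, adjusted p = 0.140).

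After GH, Klf9 had 0.85 and 0.80 at 1 GH and 1.00 and 0.74 at 2 GH, above 0 on all 4 arrays. The estimates were 0.82 ± 0.10 (1.77-fold, adjusted p = 0.00184) and 0.87 ± 0.10 (1.83-fold, adjusted p = 0.000378), and they differed by 0.05 ± 0.14 (adjusted p = 0.889). The call at 1 GH ended without replicate 1 (adjusted p = 0.0603) or replicate 2 (adjusted p = 0.0522). The second Klf9 probe was called in the same 4 comparisons and in the same direction, with smaller ratios (-0.31 ± 0.07, -0.31 ± 0.07, 0.48 ± 0.07 and 0.60 ± 0.07). The sexes were not called apart in untreated rats (-0.22 ± 0.10, adjusted p = 0.194). Mean levels of both GH groups (12.72 and 12.69) and both untreated groups (12.65 and 12.48) were above those of Hypox females (12.20) and males (11.92).

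The Krüppel-like family did not follow Klf9. Of 11 tested members 7 rose and 2 fell after Hypox in males (median 0.39), and 5 rose and 2 fell in females (median 0.17). Klf15, a factor of amino acid and glucose metabolism, rose after Hypox (1.10 ± 0.12 and 1.01 ± 0.12) and fell after 1 GH (-1.10 ± 0.12) and 2 GH (-1.45 ± 0.12). Klf6 rose after Hypox (1.01 ± 0.18 and 0.97 ± 0.18) and after 2 GH (2.39 ± 0.18). Klf13 fell with Klf9 after Hypox (-0.48 ± 0.09 and -0.67 ± 0.09). In all, 1 rose and 2 fell after 1 GH (median 0.07), and 3 rose and 1 fell after 2 GH (median 0.08).

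Gpd2 encodes the mitochondrial glycerol-3-phosphate dehydrogenase, whose activity in liver is a classical measure of thyroid hormone action, and it fell after Hypox in both sexes. The ratios were -2.06 and -1.55 in Hypox against untreated males. They were -2.24 and -1.86 in Hypox against untreated females. The 2 sexes overlapped in the size of the fall. The estimates were -1.80 ± 0.15 in males (3.49-fold lower, interval -2.16 to -1.45, limma adjusted p = 9.99e-05) and -2.05 ± 0.15 in females (4.14-fold lower, interval -2.40 to -1.70, adjusted p = 4.96e-05). The difference between the sexes was 0.25 ± 0.15 (interval -0.10 to 0.60) and was not called.

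After 1 GH, Gpd2 had 0.81 and 0.72, an estimate of 0.77 ± 0.15 (1.7-fold higher than in Hypox males, adjusted p = 0.0142). After 2 GH it had 0.66 and 0.23, an estimate of 0.44 ± 0.15 that was not called (adjusted p = 0.0617). The difference between them was -0.32 ± 0.22 (adjusted p = 0.427). The call at 1 GH ended without replicate 1 (adjusted p = 0.210) or replicate 2 (adjusted p = 0.151), and with no background correction (0.40, adjusted p = 0.0719), where the fall in Hypox males was -1.11. The ratio at 2 GH was called with the processed signals (0.74, adjusted p = 0.0205), with the authors' value table (adjusted p = 0.0204), in a model of RNA levels (adjusted p = 0.0391) and with slide as a fixed block (adjusted p = 0.0216). Without the 4 replicate 2 arrays of Hypox male RNA the ratio at 2 GH was 0.74 and called (adjusted p = 0.0216). Mean levels were 10.07 in untreated females and 9.67 in untreated males, which overlapped, 8.57 after 1 GH, 8.37 after 2 GH, and 7.90 and 7.81 in Hypox females and males, which overlapped.

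Among 9 genes of the glycerol phosphate and malate-aspartate shuttles, 1 rose and 4 fell after Hypox in males (median -0.47), and 2 rose and 3 fell in females (median -0.11). The aspartate-glutamate carrier Slc25a12 (-1.48 ± 0.07 and -1.12 ± 0.07) and the cytosolic malate dehydrogenase Mdh1 (-0.67 ± 0.22 and -0.92 ± 0.22) fell with Gpd2. After 1 GH Gpd2 and Slc25a12 (0.50 ± 0.07) rose and 1 gene fell (median 0.10), and after 2 GH 0 rose and 3 fell (median -0.26).

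A list of 25 tested liver genes known to respond to thyroid hormone, which holds Dio1, Klf9 and Gpd2, had 3 up and 15 down after Hypox in males (median -0.88) and 2 up and 11 down in females (median -0.53). Among those that fell were Pfkfb1 (-2.82 ± 0.31 and -2.82 ± 0.31), which sets the level of fructose 2,6-bisphosphate, and Me1 (-2.63 ± 0.12 and -2.82 ± 0.12), the malic enzyme that supplies NADPH for fat synthesis. Thrsp, the Spot 14 gene of fat synthesis, had -0.88 ± 0.66 and -1.15 ± 0.66 and was not called. The fat synthesis genes Scd (-2.76 ± 1.80 and -4.21 ± 1.80) and Fasn (-2.03 ± 1.15 and -3.05 ± 1.15) had large estimates with wide errors and were not called. The genes that rose in males were the sodium pump subunit Atp1b1 (0.86 ± 0.23), the sterol regulator Srebf2 (0.39 ± 0.06) and the coactivator Ppargc1a (0.26 ± 0.08), and in females Pck1 of glucose synthesis (1.44 ± 0.25) and Srebf2 (0.25 ± 0.06).

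After 1 GH 7 rose and 2 fell of these 25 genes (median 0.31), among them Klf9 and Dio1, with the glucose-6-phosphatase gene G6pc lower (-0.94 ± 0.19). After 2 GH 6 rose and 3 fell (median -0.01), among them the hormone gene Fgf21 (2.79 ± 0.49) and the fatty acid oxidation gene Cpt1a (1.08 ± 0.21), while G6pc (-1.90 ± 0.19) was among those that fell. Between untreated males and females 6 were higher and 4 lower in males (median -0.05), led by Pck1 (1.67 ± 0.25) upwards and Me1 (-0.55 ± 0.12) downwards.

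Between Hypox males and Hypox females, 7 of the 8 lists had 0 calls in limma, with from 0 to 4 members at an unadjusted p under 0.05. The exception was the list with the deiodinases, in which 2 were higher and 1 was lower in Hypox males. Between untreated males and females 0 selenoprotein genes were higher and 2 lower in males (median 0.07), 2 shuttle genes were higher and 0 lower (median 0.03), and 0 Krüppel-like genes were higher and 1 lower (median -0.18). The difference between the sexes in the Hypox response was called for 2 up and 6 down of the 25 responsive genes (median 0.01), led by Fgf21 (-2.12 ± 0.49) and Pck1 (-1.80 ± 0.25), and for 2 up and 5 down of the 13 deiodinases and conjugating enzymes (median -0.23).

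For each member with a ratio of at least 1 in size, the 4 genes of most like pattern were found by the root mean square difference of log2 ratios over the 6 comparisons, among 5958 genes. For Dio1 they were Ccnb2 (0.276), Top2a (0.286), Spc25 (0.299) and Ccna2 (0.312), all genes of cell division. For Serpina7 they were Mt1 (0.383), Igfbp2 (0.605), Hsd17b2 (0.632) and Ndrg1 (0.643), and for Thrb Cpb1 (0.124), Ehhadh (0.160), Ptgr1 (0.204) and Slc27a2 (0.239). Cpb1, a pancreatic carboxypeptidase, is itself one of the pancreas markers. For Gpd2 they were Slc16a13 (0.172), Pdp2 (0.182), Rpp21 (0.247) and Synrg (0.282), and for Slc16a10 Cyp3a23-3a1 (0.431), Itpka (0.452), Cyp2e1 (0.461) and Eef2k (0.473). The comparisons share RNAs, so these distances are descriptions.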

How the data were processed

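Pooled liver RNA was amplified once as antisense RNA, labelled with Alexa 555 or Alexa 647 and hybridised in pairs, per the labels' protocols. Scans were read with Agilent Feature Extraction 9.1.3.1, and the authors deposited each array's output, with the mean and background intensities of 45018 spots in both colours. Processed signals, which are intensities after that program's background subtraction and dye normalization, their log10 ratios of red over green, and flags of 0 or 1 for spots were deposited beside them, per the file headers. The authors' deposited value table matched the log2 ratio of channel 2 to channel 1 of the processed signals, judged from the values.

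Intensities were corrected by normexp (offset 50) and normalized by loess within arrays in limma 3.58.1 (with R 4.3.3 and the data.table package, version 1.17.8). Control spots (1639) and outlying spots were left out, and no spot was saturated. The dye labels set the direction, channel 2 over channel 1. Testing needed an RNA well above background on both arrays of a comparison (29008 probes passed in at least one). A linear model in limma was fitted with 6 comparison coefficients and 1 for dye (5 residual and 3.08 prior degrees of freedom, prior SD 0.101). Its code was tested on simulated data, with noise independent between arrays and so no shared pools. There 50% to 56% of log2 changes of 0.5 were recovered in a comparison, and 0.971% to 10% of the calls were false. A residual spread shared by all comparisons was used because each had 2 arrays.

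The members, gene lists and tests were chosen with earlier results of these data known. Genes other than the members came from lists of plasma carriers, membrane transporters, deiodinases and conjugating enzymes, selenoproteins, receptors and coregulators, thyroid hormone responsive genes, mitochondrial shuttles and the Krüppel-like family, and from markers of hepatocytes, macrophages, endothelium, stellate cells, bile duct, lymphocytes, erythroid cells and pancreas. Named were up to 3 called genes per direction and list, and others singled out after their values were seen. The labels do not match pools to arrays. For 1 array of the 1 GH comparison only the title names the hormone, and it was followed. The values of 2 listed genes are not reported here, although the counts of their lists include them.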

Additional observations from a re-analysis of the deposited data

Results flagged for a closer look

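The following 2 results of Dio1 met a rule for a closer look, each at both of its probes, because 2 effects under the same contrast differed by a test of the difference itself. The fall after hypophysectomy was deeper in males than in females by a log2 difference of -1.18 at the brighter probe and -0.999 at the other. Dio1 was called after 1 GH and not after 2 GH, with a log2 difference of 2 GH minus 1 GH of -0.685 at the brighter probe and -0.583 at the other. Both GH differences rest on 1 pool per treatment, and the time since the first dose differed between the treatments too. None of 30 groups of 4 to 8 channel levels had a single channel far from the others. That rule cannot flag an even split of channels by replicate. Such splits included Thrb in Hypox females (12.27 to 12.47 against 10.99 to 11.03) and Serpina7 in Hypox males (15.59 to 15.84 against 14.49 to 14.86). In Hypox males Slc16a10 (12.71 to 12.88 against 12.13 to 12.44) and Thrb (12.38 to 12.55 against 11.73 to 12.08) were also split. The list is not complete: Gpd2 in untreated females was split too (10.28 to 10.42 against 9.70 to 9.86).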

How the results depend on the processing

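Counts of member probes called are given in the order untreated males against females, Hypox in males, Hypox in females, Hypox males against Hypox females, 1 GH, 2 GH, the sex dependence of Hypox, and 2 GH minus 1 GH. With all 12 arrays they were 3, 9, 9, 0, 6, 5, 2 and 2. Arrays centred on their median, with no loess, gave 0, 4, 2, 0, 0, 0, 0 and 0, and the cause was not tested. Without the dye coefficient 2 GH minus 1 GH had 0 calls, and with only a comparison's own arrays 1 GH had 2 and 2 GH minus 1 GH had 0, with fewer arrays in the fit. Leaving out 1 array gave 4 to 6 calls for Hypox in females, 2 in either case for 1 GH and 0 in each case for 2 GH minus 1 GH. Leaving out the 4 replicate 2 arrays with Hypox male RNA gave 5 calls for untreated males against females, 4 for the sex dependence and 0 for 2 GH minus 1 GH. In every alternative run, no member call reversed its direction.

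With no background correction, with the processed signals and with the authors' value table, Slc16a10 lost its call in untreated males against females (adjusted p = 0.0574, 0.0545 and 0.0537) and in Hypox females (0.0600, 0.0619 and 0.0621), and Thrb in Hypox females (0.0664, 0.0551 and 0.0542). With no background correction Gpd2 after 1 GH and Thrb after 2 GH lost theirs too. With only the comparison's own arrays Dio1 after 1 GH (adjusted p = 0.0510) and Thra in Hypox males (0.204) and after 1 GH (0.0716) lost their calls.

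Counts over all probes moved by over 1.5 times as follows, in the same order. Median centring gave 261, 345, 370, 7, 0, 75, 118 and 0 in place of 3983, 9737, 8836, 247, 3764, 8773, 3218 and 2721. Without a background correction Hypox males against Hypox females had 393 and 2 GH minus 1 GH 4170, and the former had 115 with the processed signals and 113 with the value table. Without the dye coefficient the counts were 2600 for the sexes, 83 for the Hypox sexes, 2106 for 1 GH, 1890 for the sex dependence and 1228 for 2 GH minus 1 GH. With only the comparison's arrays they were 2721 for Hypox in males, 6 for the Hypox sexes, 738 for 1 GH, 3568 for 2 GH, 1534 for the sex dependence and 219 for 2 GH minus 1 GH. A model of RNA levels gave 6347 for the sexes and 1014 for the Hypox sexes. Fitted apart from the GH arrays, the other 8 gave 68 for the Hypox sexes and 2111 for the sex dependence. Leaving out the 4 replicate 2 arrays gave 5416 for Hypox in males, 106 for the Hypox sexes, 1128 for 1 GH, 4785 for 2 GH and 438 for 2 GH minus 1 GH. Leaving out 1 array gave 1292 to 1448, 5648 to 8953, 3582 to 4157, 22 to 46, 558 to 629, 4183 to 4870, 1801 to 3682 and 515 to 995.

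With the replicate block the member counts were 2, 9, 8, 0, 6, 5, 2 and 2, and the Hypox sexes had 143 calls over all probes. The block ended the calls of Slc16a10 between untreated sexes (adjusted p = 0.0532) and in Hypox females (0.0574). Replicate numbers share only a number in the labels. Over 9 pairs of comparisons with a common RNA, deviations turned to that RNA had correlations of -0.01 to 0.86, with 8 over 0.1. Pairs with no common RNA had correlations from -0.54 (Hypox in females and 1 GH) to 0.42 (untreated sexes and 2 GH). The correlations therefore cannot tell whether pools were shared. Slide as a random block (consensus correlation 0.0137) or as a fixed block moved no member count by over 1.5 times. The 4 GH arrays alone, with a dye term, left 1 residual degree of freedom and an unbounded prior, so that their 12243, 14851 and 10668 calls over all probes (1 GH, 2 GH and their difference) are no usable test. The fixed block of slides, the fits apart from the GH arrays, the fit without the 4 replicate 2 arrays and the check of pairing were added after the data had been seen. Signal over background limits the second Thrb probe, which was tested after 2 GH only.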

Other observations

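Markers of other cells gave the following counts, beside those of the report. Of 7 macrophage markers 6 were lower in untreated males than females (median -0.28). Of 7 bile duct markers 3 rose and 1 fell after Hypox in either sex (medians 0.50 and 0.10), led by the keratin Krt19 (1.89 in males and 1.69 in females) and Epcam (1.82 and 1.75). Lymphocyte markers rose for 5 of 8 after Hypox in males (median 0.30) and 3 of 8 in females (median 0.22). Stellate cell markers rose for 3 and fell for 2 of 8 in males (median -0.20), and rose for 1 and fell for 2 in females (median -0.16). All 3 tested erythroid markers fell after Hypox in males (median -2.07) and in females (median -1.04). After 1 GH 2 of them rose and 0 fell (median 1.03), and after 2 GH 2 rose and 1 fell (median 0.47). Of the pancreas markers 1 of 4 tested rose after Hypox in males and 1 of 6 fell in females. Their part in the results on thyroid hormone genes was not tested.

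The ratios of 4 comparisons form a loop of the 4 RNAs from untreated and Hypox rats, whose sum is 0 without error. The sum was -0.44 for Serpina7, 0.54 for Ttr and 0.13 for Dio1. Over all probes the median size of the sum was 0.0557 and the 95th percentile 0.190.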
